A study of Mus musculus with 30 samples.

Results

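The serum amyloid A genes Saa1, Saa2 and Saa3 and the serum amyloid P gene Apcs were followed in mouse liver. They are 4 of the 8996 genes measured, and each was read by 1 of the 15505 probes. The genes were picked by symbol, with the G35 comparison and the spread of the water controls already known, so those values are given below as a description. Liver RNA of 30 mice was hybridized, 1 mouse per array, in 10 groups of 3 mice. Male and female mice, 8 weeks old at the start and on standard chow, were gavaged daily for 30 days with 500 µl. The mice named G12 and G35 received a decoction of root flour of the chicory genotype of that name, at 10 mg of root powder per mouse per day. Control 1 mice received water in the same period. In a later, separate experiment, inulin mice received 6.9 mg of inulin per mouse per day and control 2 mice received water. The mouse strain is not given in the sources used here. Inulin, the storage fructan of chicory root, was dosed to match its content in G35 roots.

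Serum amyloid A proteins and serum amyloid P belong to the acute phase reactants, plasma proteins that the liver secretes in greater amounts during inflammation and tissue injury. Interleukin-6, interleukin-1 and tumour necrosis factor act on hepatocytes, and STAT3, NF-kB and C/EBP factors then switch on the acute phase genes. Saa1 and Saa2 encode the main circulating forms, which travel on high-density lipoprotein and form AA amyloid deposits when they stay high. Saa3 is also made outside the liver, by macrophages and adipocytes. Apcs encodes a pentraxin that binds amyloid fibrils and cell debris, and in mice it is the main acute phase pentraxin, a place held by C-reactive protein in humans.

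Saa1, Saa2 and Saa3 lie in 1 cluster on chromosome 7. In RefSeq's annotation of GRCm38.p6, Saa1 spans chr7:46740497-46743181 on the minus strand, Saa2 spans chr7:46751833-46754313 on the plus strand, and Saa3 spans chr7:46711998-46719615 on the minus strand. Saa1 and Saa2 point away from each other with 8651 bases between them. Apcs stands alone on chromosome 1, at chr1:172893961-172895054 on the minus strand. The 250 bases before the transcript start that RefSeq's promoter table uses are printed because Saa1 and Saa2 moved together from mouse to mouse (below). The windows are chr7:46742981-46743230 for Saa1, chr7:46751583-46751832 for Saa2, chr7:46715677-46715926 for Saa3 and chr1:172895055-172895304 for Apcs, each on its gene's strand. The Saa3 window and most of the Saa1 window fall inside the annotated gene spans, since longer spans begin farther upstream. Capitals mark matches to the motifs searched.
Saa1: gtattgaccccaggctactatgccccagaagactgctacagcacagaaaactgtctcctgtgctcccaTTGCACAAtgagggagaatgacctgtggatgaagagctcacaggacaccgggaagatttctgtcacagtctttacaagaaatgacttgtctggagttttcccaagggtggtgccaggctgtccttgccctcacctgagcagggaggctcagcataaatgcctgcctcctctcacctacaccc
Saa2: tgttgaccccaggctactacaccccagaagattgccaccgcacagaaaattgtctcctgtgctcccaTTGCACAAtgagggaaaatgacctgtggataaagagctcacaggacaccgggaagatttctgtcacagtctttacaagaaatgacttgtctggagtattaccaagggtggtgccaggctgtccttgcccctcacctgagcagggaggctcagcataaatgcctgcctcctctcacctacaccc
Saa3: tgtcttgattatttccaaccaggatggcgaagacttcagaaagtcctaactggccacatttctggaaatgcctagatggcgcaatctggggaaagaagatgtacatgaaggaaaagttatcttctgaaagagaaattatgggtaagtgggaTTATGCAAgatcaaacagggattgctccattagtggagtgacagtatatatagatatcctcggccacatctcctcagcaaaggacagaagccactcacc
Apcs: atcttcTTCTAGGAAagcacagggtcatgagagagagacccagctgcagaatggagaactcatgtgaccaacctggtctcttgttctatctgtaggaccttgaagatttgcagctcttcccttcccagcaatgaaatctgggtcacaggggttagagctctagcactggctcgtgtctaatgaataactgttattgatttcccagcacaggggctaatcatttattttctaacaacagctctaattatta
The Saa1 and Saa2 windows were 94.8% identical, with 238 identical bases in 251 aligned columns, while the other pairs lay between 47.0% and 48.5%. The C/EBP pattern TTGCNNAA, searched on both strands, matched once in Saa1 (bases 182 to 175 before the start), once in Saa2 (183 to 176) and once in Saa3 (99 to 92, on the opposite strand). It occurs in 9.56% of all 32851 promoter windows of the same length. The STAT3 pattern TTCNNNGAA matched once in Apcs, at bases 244 to 236, and occurs in 7.02% of all windows. An NF-kB consensus pattern, present in 1.41% of all windows, had no match in the 4 windows. A match describes letters and is no measured binding site. The likeness of these windows does not describe the probes, and probe and transcript sequences were not compared here. Hybridization of RNA of one gene to the probe of the other was not tested. It cannot be told apart from their own signal.

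Levels are normalized log2 intensities, after background correction and quantile normalization, so a difference of 1 is a doubling. No array equalled another (0 identical pairs), and no member reached the scanner maximum on any array. Array medians before normalization ran from 141 to 511. Of 8 hepatocyte markers 7 were measured, all with a mean level at or above the 92.4th percentile of genes, and Alb (albumin) averaged 15.74. Saa1 and Saa2 both averaged 10.99 over the 30 mice, Apcs 9.98 and Saa3 7.00. Saa3 sat at the 27.2nd percentile of all genes by mean level, and the deposited values carry no background flag, so its detection could not be judged. The background offset also understates fold changes of a gene this dim. In a piece of liver, fewer cells of a type and less RNA per cell cannot be told apart.

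Saa1, the major inducible serum amyloid A, was very uneven between mice of the same group. Male G12 mice had levels of 9.76, 11.18 and 11.40 and male G35 mice 14.83, 10.98 and 15.39, against 9.29, 9.81 and 10.45 in male control 1 mice. Among females, G12 mice had 11.49, 13.20 and 9.99 and G35 mice 9.45, 12.95 and 15.67, against 9.30, 10.54 and 9.55 in control 1. All 3 G35 males lay above all 3 control 1 males, while 1 G35 female lay among the control 1 females and the G12 mice overlapped control 1 in both sexes. In the inulin experiment, male inulin mice had 9.73, 10.49 and 10.79, against 8.91, 15.08 and 10.60 in male control 2 mice. Female inulin mice had 9.85, 9.76 and 9.97, against 10.10, 10.00 and 9.07 in female control 2 mice. A single water-gavaged male, replicate 2 of control 2, thus reached the range of the highest G35 mice, and the other inulin and control 2 mice stayed at or below 10.79.

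Saa2, the neighbour and near copy of Saa1, ran high and low in nearly the same mice. Male G12 mice had levels of 9.87, 11.28 and 12.10 and male G35 mice 14.83, 10.71 and 14.05, against 9.34, 9.52 and 10.82 in male control 1 mice. Female G12 mice had 12.14, 13.16 and 10.88 and female G35 mice 9.77, 13.30 and 14.55, against 9.99, 10.66 and 9.58 in female control 1 mice. All G12 females lay above all control 1 females, and the other 3 sets overlapped. Male inulin mice had 9.80, 10.32 and 9.68, against 8.17, 13.65 and 10.33 in male control 2 mice. Female inulin mice had 10.53, 10.48 and 10.44, against 10.18, 10.34 and 9.09 in female control 2 mice. The female inulin mice were close to each other and just above the control 2 females, while among males replicates 1 and 2 of control 2 were the lowest and the highest of the experiment.

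Saa3, the serum amyloid A also made by macrophages and adipocytes, was dim and moved within a much narrower range. Male G12 mice had levels of 6.93, 7.10 and 7.16 and male G35 mice 7.76, 8.20 and 8.60, against 6.87, 7.08 and 6.88 in male control 1 mice. Female G12 mice had 6.72, 7.12 and 7.16 and female G35 mice 7.07, 6.95 and 8.00, against 6.67, 6.65 and 6.67 in female control 1 mice. The G35 mice of each sex all lay above the control 1 mice of that sex, and so did the G12 females. Male inulin mice had 6.89, 6.66 and 6.38, against 6.51, 7.23 and 6.56 in male control 2 mice. Female inulin mice had 6.37, 6.87 and 6.53, against 6.59, 7.24 and 6.56 in female control 2 mice. These groups overlapped, and replicate 2 was the highest control 2 mouse in both sexes. Male G35 replicate 2 had the second highest Saa3 of all mice although its Saa1 and Saa2 were the lowest of the G35 males.

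Apcs, the pentraxin, varied more than Saa3 and less than Saa1 and Saa2. Male G12 mice had levels of 8.89, 9.86 and 9.22 and male G35 mice 11.23, 9.62 and 10.81, against 9.93, 9.85 and 9.10 in male control 1 mice. Female G12 mice had 10.63, 10.73 and 10.68 and female G35 mice 10.42, 10.13 and 12.16, against 9.02, 10.43 and 9.59 in female control 1 mice. All G12 females lay above the control 1 females and close to each other, the G12 males overlapped the control 1 males, and the G35 mice overlapped control 1 in both sexes. Male inulin mice had 8.96, 8.90 and 9.41, against 9.25, 10.82 and 8.79 in male control 2 mice. Female inulin mice had 10.54, 10.38 and 10.38, against 9.68, 10.18 and 9.78 in female control 2 mice. The inulin females again stood just above their controls, and the highest control 2 mouse was the male, replicate 2, that was also highest in Saa1 and Saa2.

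**Figure D1:**
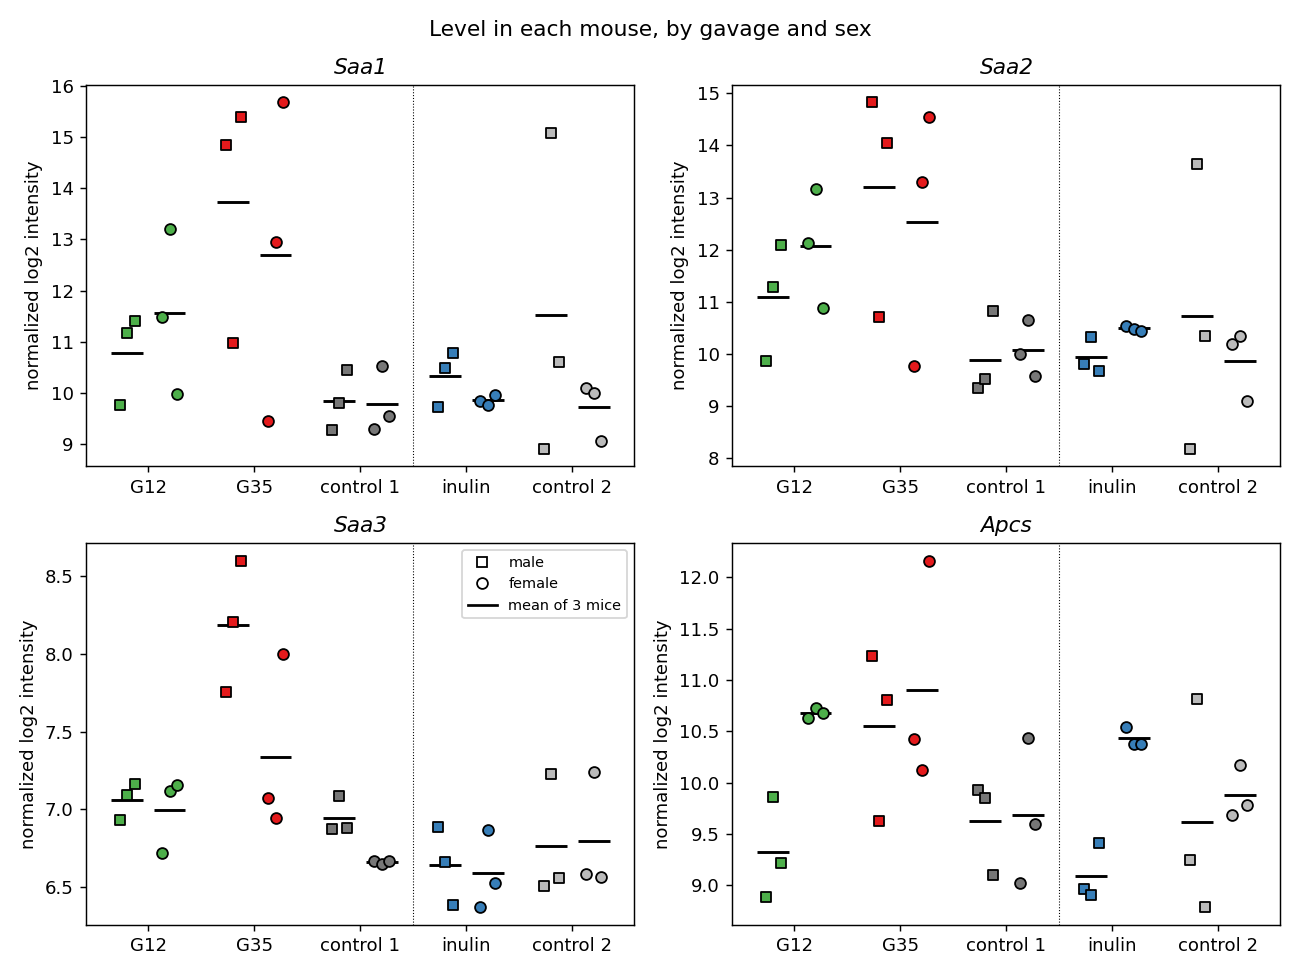
Normalized log2 intensity of Saa1, Saa2, Saa3 and Apcs (vertical axes) in each of the 30 mice, by gavage (horizontal axis), with squares for males, circles for females and bars for means of 3 mice. The dotted line parts the chicory from the inulin experiment. Saa1 ranged from 9.45 to 15.67 in G35 mice, and male control 2 replicate 2 reached 15.08.

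Over both sexes, the order of mean levels began with G35 and then G12 for all 4 genes. Saa1 averaged 13.21 ± 2.55 in G35, 11.17 ± 1.24 in G12, 10.63 ± 2.28 in control 2, 10.10 ± 0.44 in inulin and 9.82 ± 0.55 in control 1 mice (SD, n = 6 each). Saa2 kept that order, with 12.87 ± 2.12, 11.57 ± 1.15, 10.29 ± 1.86, 10.21 ± 0.37 and 9.98 ± 0.62. For both genes every neighbouring pair in the order overlapped. Saa3 averaged 7.76 ± 0.65 in G35, 7.03 ± 0.17 in G12, 6.80 ± 0.17 in control 1, 6.78 ± 0.35 in control 2 and 6.62 ± 0.23 in inulin mice. Apcs averaged 10.73 ± 0.89 in G35, 10.00 ± 0.81 in G12, 9.76 ± 0.76 in inulin, 9.75 ± 0.71 in control 2 and 9.66 ± 0.54 in control 1 mice. Neighbours overlapped for these genes as well. The position of G35 at the top is what the genes were chosen on, and levels of the separate chicory and inulin experiments differ in period and slides as well as in gavage.

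Saa1 and Saa2 had the highest differences of G35 from control 1 mice of all genes, and Apcs and Saa3 were among the 10 highest. The genes were chosen on this comparison, so it is not tested. Saa1 was higher by 3.39 ± 0.92 on the log2 scale (SE of the fit, 6 mice against 6), or 10.5-fold, first of the 8996 genes by signed difference. Saa2 followed with 2.89 ± 0.80 (7.39-fold), Apcs stood at place 7 with 1.07 ± 0.34 (2.10-fold), and Saa3 at place 10 with 0.96 ± 0.18 (1.94-fold). The 95% interval of the difference was 1.49 to 5.29 for Saa1, 1.24 to 4.53 for Saa2, 0.36 to 1.78 for Apcs and 0.59 to 1.32 for Saa3. Saa1 and Saa2 thus had large differences with wide intervals, and Saa3 a smaller difference with a narrow one. These intervals do not allow for the choice of the genes, so they describe and do not test. In males, Saa1 and Saa3 did not overlap control 1, beside 6.48% of all genes that lay wholly above the controls in that sex, and in females Saa3 did not, beside 4.88%. In all genes, 0.0556% were called in this comparison at an adjusted p under 0.05, 5 of the 8996 by limma with Benjamini-Hochberg adjustment. The Saa1 difference was 2.64 without female G35 replicate 3 and 4.20 without female G35 replicate 1. Inside the 4 sets of 1 slide and 1 sex that held both gavages, Saa1 was higher in G35 in 4 of 4, by 1.17 to 5.54, Saa2 in 4 of 4, by 1.20 to 5.49, Saa3 in 4 of 4, by 0.34 to 1.72, and Apcs in 3 of 4, with differences from -0.23 to 1.71.

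G12, the other chicory genotype, did not change any of the 4 genes at the threshold, though Saa2 and Saa1 stood at places 4 and 5 of all genes by signed difference. That order takes no account of the spread between mice, which was wide for both genes. By the same order Saa1 stood at place 8965 of 8996 and Saa2 at 6766 for inulin, and at 8904 and 8282 for females against males. Saa2 differed from control 1 by 1.59 ± 0.80 (95% interval -0.05 to 3.23, adjusted p = 0.924) and was higher than every same-sex control in 5 of 6 mice. Saa1 differed by 1.35 ± 0.92 (-0.55 to 3.25, adjusted p = 0.958), Apcs by 0.35 ± 0.34 (-0.36 to 1.06, adjusted p = 0.987) and Saa3 by 0.23 ± 0.18 (-0.14 to 0.59, adjusted p = 0.984). The Apcs value was 0.18 without female control 1 replicate 1 and 0.53 without female control 1 replicate 2. The 4 intervals include 0 and also differences of several-fold for Saa1 and Saa2. The percentage of all genes called was 0, that is 0 of 8996 by limma's test with Benjamini-Hochberg adjustment, while 469 had an unadjusted p under 0.05. The control 1 mice also took part in choosing the genes, so this test is not fully independent of the choice. G12 and G35 share these controls. By sex, G12 females lay wholly above control 1 females for Saa2 (12.06 ± 1.14 against 10.07 ± 0.55), Apcs (10.68 ± 0.05 against 9.68 ± 0.71) and Saa3 (7.00 ± 0.24 against 6.66 ± 0.01, SD, n = 3 each), beside 5.44% of all genes, and in G12 males none of the 4 did, beside 5.60%. Apcs averaged 9.32 ± 0.49 in G12 males, against 9.63 ± 0.46 in control 1 males. Whether the sexes differed in their response was not tested. Inside the 4 sets of 1 slide and 1 sex, Saa1, Saa2 and Saa3 were higher in G12 in 4 of 4 and Apcs in 3 of 4, with Saa1 differences of 0.95 to 2.67 and Saa2 differences of 1.24 to 2.51.

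Inulin at the dose matched to G35 roots gave no call in the 4 genes either. Saa1 differed from control 2 by -0.53 ± 0.92 (95% interval -2.43 to 1.37), Saa2 by -0.08 ± 0.80 (-1.73 to 1.56), Saa3 by -0.16 ± 0.18 (-0.53 to 0.20) and Apcs by 0.02 ± 0.34 (-0.69 to 0.72), each with an adjusted p of 1.00. Of all genes the share called was 0, or 0 of 8996 by limma, with 178 at an unadjusted p under 0.05. The Saa1 and Saa2 values rest on the single high water control: without male control 2 replicate 2 the differences were 0.36 ± 0.83 for Saa1, 0.65 ± 0.73 for Saa2, 0.31 ± 0.32 for Apcs and -0.05 ± 0.18 for Saa3. In females, where no control was high, Saa2 was 10.49 ± 0.04 in inulin and 9.87 ± 0.68 in control 2 mice, and Apcs was 10.44 ± 0.09 in inulin and 9.88 ± 0.26 in control 2 mice (SD, n = 3 each). Both lay wholly above their controls, beside 3.19% of all genes, and none of the 4 did in males, beside 4.75%. Inside the 5 sets of 1 slide and 1 sex, the inulin mouse or mice were higher in 2 of 5 for Saa1, 3 of 5 for Saa2, 1 of 5 for Saa3 and 4 of 5 for Apcs.

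Female and male water controls did not differ at the threshold in any of the 4 genes. Saa1 differed by -0.93 ± 0.92 (female minus male, 95% interval -2.84 to 0.97, adjusted p = 0.629, 6 mice against 6), Saa2 by -0.33 ± 0.80 (adjusted p = 0.867), Saa3 by -0.13 ± 0.18 (adjusted p = 0.747) and Apcs by 0.16 ± 0.34 (adjusted p = 0.850). In the same comparison 5.46% of all genes were called. Without male control 2 replicate 2 the difference was -0.04 ± 0.83 for Saa1 and 0.40 ± 0.73 for Saa2, so the size of the Saa1 value and the sign of the Saa2 value rest on that mouse. Without male control 2 replicate 1 the Saa1 difference was -1.59. Between the control sets, control 2 minus control 1 was 0.80 for Saa1, 0.31 for Saa2, -0.02 for Saa3 and 0.09 for Apcs. Period, slides and control set cannot be told apart here, and without the same mouse the values were -0.08 for Saa1, -0.42 for Saa2, -0.14 for Saa3 and -0.21 for Apcs, so the signs of Saa1, Saa2 and Apcs rest on it.

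**Figure D2:**
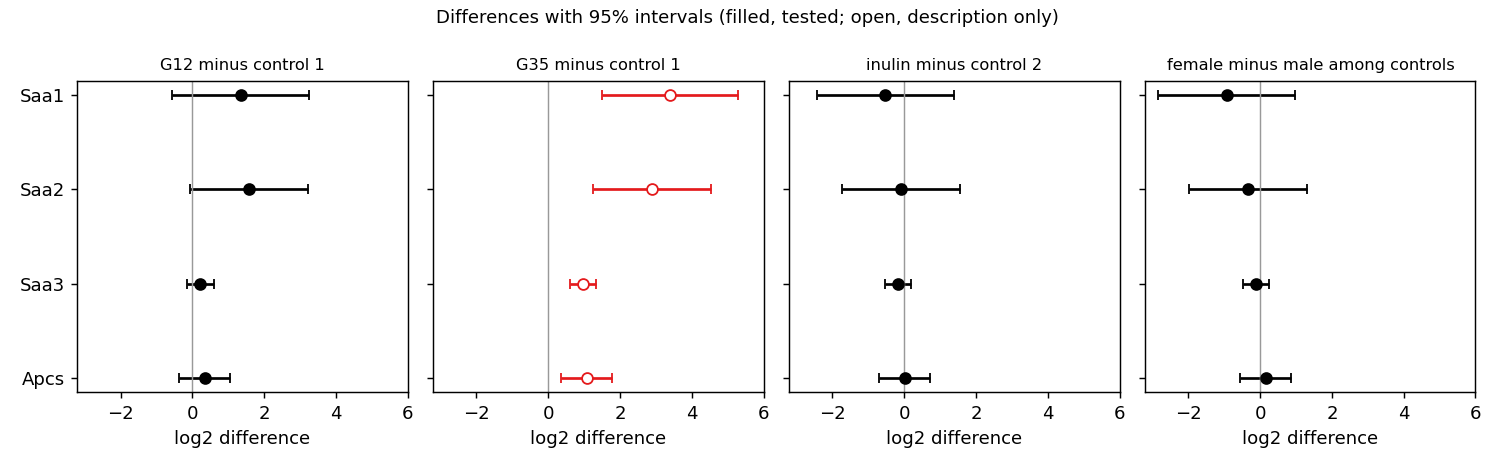
Log2 difference (horizontal axis) of the 4 genes in each comparison, with the 95% interval of the fit as bars. Intervals of G12, of inulin and of females against males all include 0. The Saa1 interval of G35 runs from 1.49 to 5.29, but the genes were chosen on G35, so its intervals are a description and no test.

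Saa1, Saa2 and Apcs stood out by their spread between mice of 1 group more than by their level, while Saa3 lay nearer the middle. The genes were picked with the spread of the water controls known, so the places below are a description. The within-group SD was 1.74 for Saa1 (place 6 of 8996 genes), 1.51 for Saa2 (place 15), 0.64 for Apcs (place 258) and 0.32 for Saa3 (place 1772), against a median of 0.226 over all genes. The groups differed widely in it. The SD of Saa1 was 0.89 in male G12, 1.61 in female G12, 2.40 in male G35 and 3.12 in female G35 mice, against 0.58 in male and 0.65 in female control 1 mice. It was 0.54 in male and 0.10 in female inulin mice, against 3.19 in male and 0.57 in female control 2 mice (n = 3 each). Both G35 groups and the male control 2 group were thus the most uneven. Pooled among mice given chicory or inulin the SD was 1.79 for Saa1, 1.51 for Saa2, 0.61 for Apcs and 0.34 for Saa3, against 1.68, 1.50, 0.69 and 0.28 in water controls in the same gene order. Much of the control spread came from 1 mouse: without male control 2 replicate 2 the SD over the other 11 controls was 0.72 for Saa1, 0.86 for Saa2, 0.49 for Apcs and 0.21 for Saa3.

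The 12 water controls covered a wide span in Saa1 and Saa2, set largely by 1 mouse, and a narrow one in Saa3. Saa1 ran from 8.91 to 15.08 with a median of 9.90, a 72.1-fold range, and Saa2 from 8.17 to 13.65 with a median of 10.09, a 44.7-fold range. For both genes the lowest and the highest control were male control 2 replicates 1 and 2, mice of the same sex, gavage and period. Apcs ran from 8.79 to 10.82 (4.09-fold) and Saa3 from 6.51 to 7.24 (1.66-fold). Without replicate 2 the highest control had a Saa1 level of 10.60 and a Saa2 level of 10.82.

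**Figure D3:**
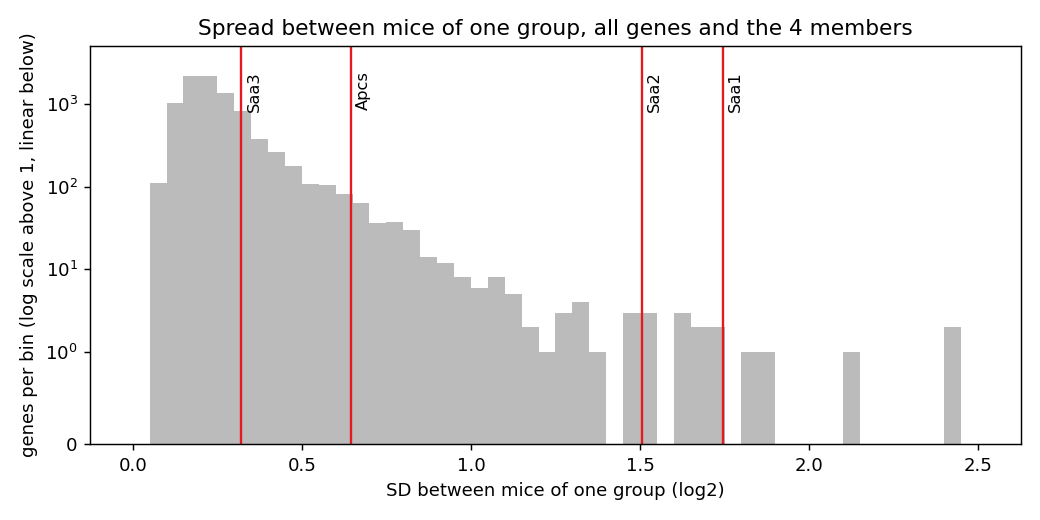
Within-group SD of log2 levels (horizontal axis) over all 8996 genes, as counts of genes per bin (vertical axis, log scale above 1), with lines at the 4 genes. Saa1 (1.74) and Saa2 (1.51) lie in the far right tail and Saa3 (0.32) nearer the median of 0.226.

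Within groups, Saa1 and Saa2 were high and low in the same mice, and Apcs followed more loosely. Over the deviations of the 30 mice from their group means, the correlation of Saa1 with Saa2 was r = 0.96 (Spearman's rho 0.93), with Apcs 0.72 (0.62) and with Saa3 0.49 (0.30). These are descriptions over mice that share slides and an array's normalization. Leaving out the 2 mice farthest from the middle, r was 0.94 with Saa2, 0.65 with Apcs and 0.36 with Saa3. By experiment, Saa1 and Saa2 had r = 0.96 in the 18 chicory-experiment mice and 0.97 in the 12 inulin-experiment mice, and Saa1 and Apcs 0.66 and 0.84 in that order. Per unit of log2 Saa1, Saa2 changed by 0.83, Apcs by 0.27 and Saa3 by 0.09. Over the 30 mice Saa3 was the least tied of the 4, with r = 0.41 to Saa2 and 0.49 to Apcs. Among the 12 water controls it was not: Saa1 had r = 0.71 with Saa3 and 0.70 with Apcs. There Saa2 had r = 0.68 with Saa3 and 0.57 with Apcs. Those controls include the high male control 2 replicate 2. Among mice given chicory or inulin, Saa1 had r = 0.38 with Saa3 and 0.74 with Apcs. With the replicate number as a block, r with Saa1 was 0.96 for Saa2, 0.70 for Apcs and 0.30 for Saa3.

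**Figure D4:**
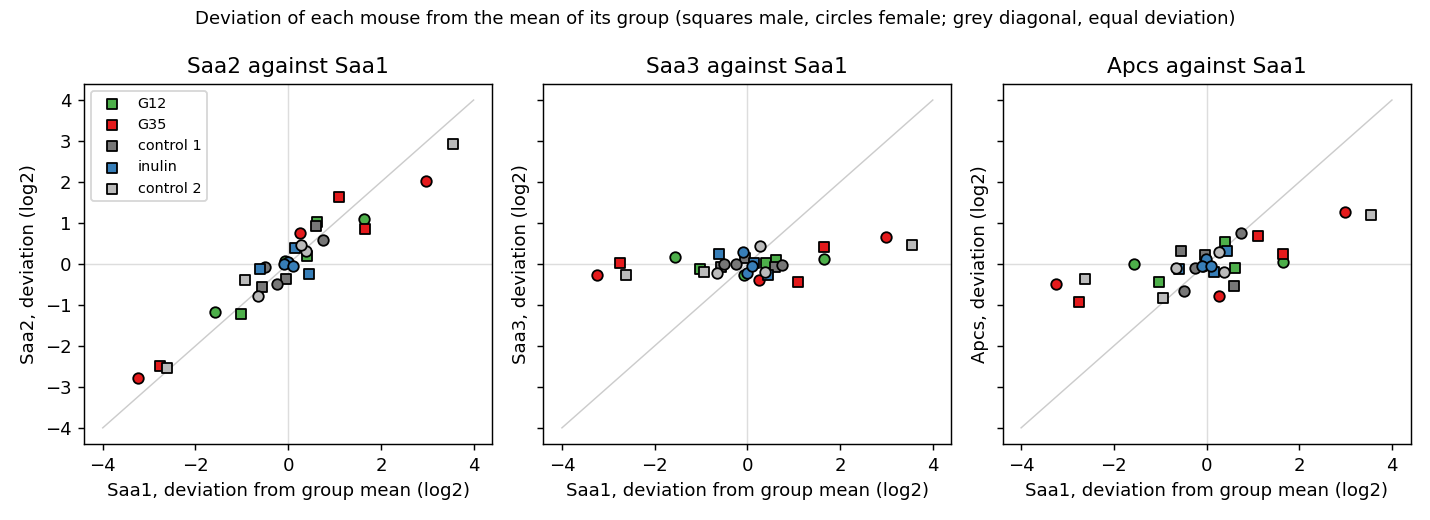
Deviation of Saa2, Saa3 and Apcs from the group mean (vertical axes, log2) against that of Saa1 (horizontal axis, log2), 1 point per mouse. Saa2 lies close to a line (r = 0.96), Apcs is looser (r = 0.72) and Saa3 is loosest (r = 0.49).

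The genes most like the members in mouse-to-mouse pattern were named by the 5 highest correlations of deviations over the 30 mice. For Saa1 these were Saa2 (0.96), Lcn2 (0.91), Orm3 (0.85), Orm2 (0.80) and Lrg1 (0.80). Lcn2 encodes lipocalin 2, an iron-siderophore binding protein, the Orm genes encode alpha-1-acid glycoproteins, and Lrg1 encodes a leucine-rich plasma glycoprotein. For Saa2 the list held Saa1, Lcn2 (0.88), Orm3 (0.79), the interferon-induced membrane protein gene Ifitm2 (0.78) and Tamm41 (0.73), a gene of mitochondrial cardiolipin synthesis. Apcs had Orm1 (0.87), the mannose-binding lectin gene Mbl1 (0.80), the MHC class I gene H2-T10 (0.74), the serpin gene Serpina3n (0.74) and Tmem176a (0.74). Saa3 had another set: the coagulation factor gene F7 (0.84), the lysosomal phospholipase gene Pla2g15 (0.81), the metalloreductase gene Steap4 (0.78), the elongation factor gene Eef2 (0.78) and Emc10 (0.76), a subunit of the ER membrane complex. In the chicory experiment mice of the same replicate number deviated together, and those numbers largely follow the slides. With the number as a block none of these 5 remained among the 5 most alike to Saa3, where F7 had r = 0.72 and Eef2 0.73. With that block all 5 genes remained for Saa1 and all 5 for Saa2, and 2 of 5 for Apcs, so the set given for Saa3 depends on this setting.

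In 6 mice the Saa1 level was above 12.9, and the genes named for likeness to Saa1 or Apcs were not uniformly high in them. Female G35 replicate 3 had Lcn2 at 13.28, Orm2 at 13.29, Lrg1 at 15.25 and Orm1 at 13.03, and male G35 replicate 3 had 11.83, 13.47, 14.63 and 12.82 in that gene order. Male G35 replicate 1 had 10.79, 12.35, 13.60 and 12.41, female G35 replicate 2 had 11.11, 11.14, 13.35 and 11.22, and female G12 replicate 2 had 11.49, 11.41, 13.64 and 11.53. Male control 2 replicate 2 had 13.40, 13.61, 14.97 and 12.72. Over all 30 mice the means were 9.72 for Lcn2, 11.66 for Orm2, 13.50 for Lrg1 and 11.36 for Orm1. Lcn2 lay above its mean in all 6 mice, whereas Orm2 lay below it in female G12 replicate 2 and female G35 replicate 2, and Orm1 and Lrg1 lay below theirs in female G35 replicate 2. The means pool the sexes, and among the controls Lcn2 was higher in females by 1.67 ± 0.78 (limma, adjusted p = 0.233, not called). Female control 2 replicate 1, with a Saa1 level of only 10.10, had Lcn2 at 11.51, so in females a high Lcn2 did not need a high Saa1. Since these genes were named from the same 30 mice, the values describe the likeness and add no support for it.

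The wider acute phase list behaved as follows in the comparisons. This list and those below were drawn up with earlier results of these data known. Genes of a list can also move together in the same mice, so counts above 0 are descriptions. Of 24 positive acute phase genes 21 were measured, and none passed the test under G12, inulin or between the sexes. Against control 1, G12 had 14 of 21 above 0 with a median log2 difference of 0.08, beside 52.0% of all genes above 0. G35 had 21 of 21 above 0 with a median of 0.29, beside 47.4% of all genes and a median of -0.01, with 0 called. The largest were Lcn2 with 2.11 ± 0.78, the metallothioneins Mt2 with 0.79 ± 0.48 and Mt1 with 0.62 ± 0.33, and Orm1 with 0.66 ± 0.32 (SE). Inulin against control 2 had 4 of 21 above 0 with a median of -0.15, beside 45.3% of all genes and a median of -0.01. That comparison holds the high water control. Females against males had 10 of 21 above 0 and a median of -0.06, beside 47.3% of all genes and a median of -0.01. Saa4, the constitutive serum amyloid A gene of the same cluster, differed by 0.25 ± 0.15 in G35, -0.02 ± 0.15 in G12 and -0.22 ± 0.15 in inulin mice, and by -0.48 ± 0.15 in females against males (adjusted p = 0.0548).

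**Figure D5:**
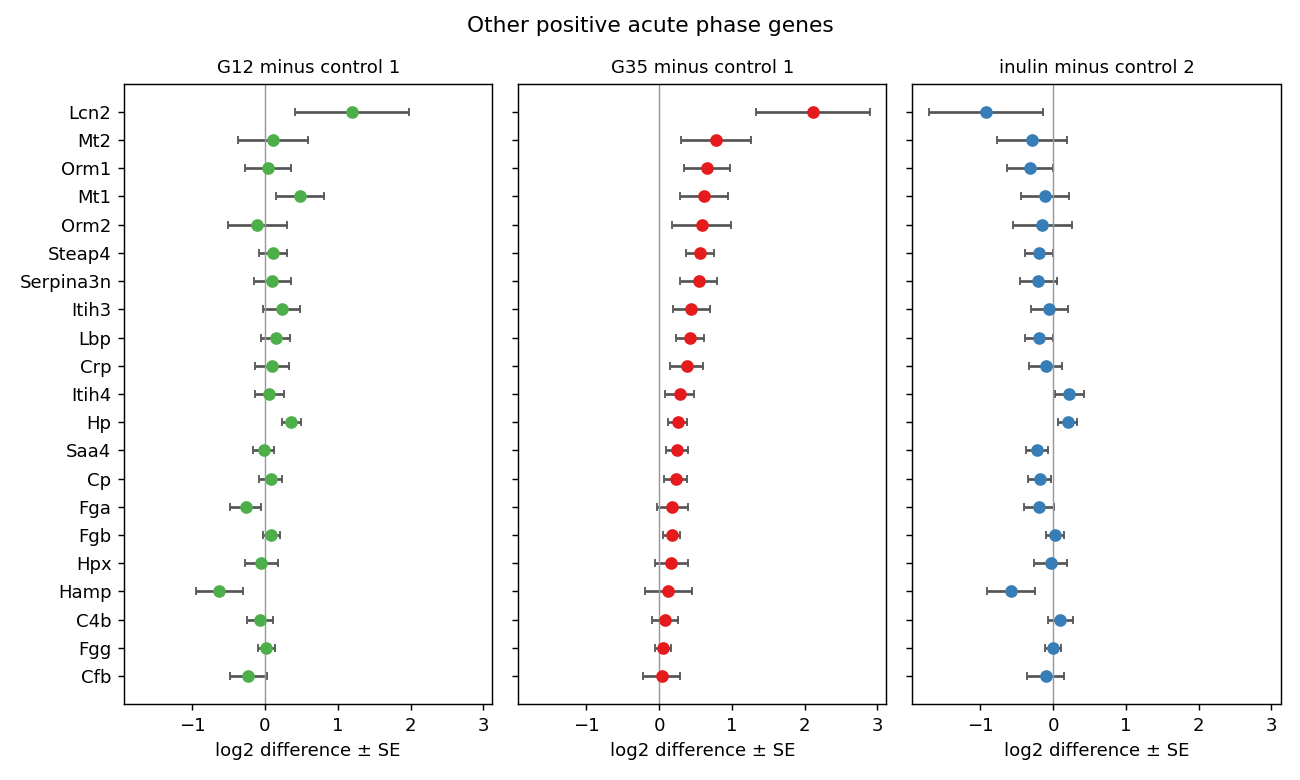
Log2 difference (horizontal axis) of each measured positive acute phase gene under G12, G35 and inulin, genes in rows, 1 point per gene with the SE of the fit as bars. For G35 all 21 points lie above 0 with a median of 0.29, and for inulin 4 of 21 do, beside 47.4% and 45.3% of all genes.

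Upstream of these genes, 8 of 16 ligands and receptors that induce the acute phase were measured, with 0 called under G12 and inulin. For G35, 6 of 8 lay above 0 with a median of 0.13. The leukaemia inhibitory factor receptor gene Lifr stood at -0.48 ± 0.15, the interleukin-6 receptor gene Il6ra at 0.38 ± 0.18, Il1b, which encodes the cytokine interleukin-1 beta, at 0.22 ± 0.18 and the shared receptor gene Il6st at 0.20 ± 0.13. Such values were not particular to G35. For G12, Lifr stood at -0.80 ± 0.15, Il6ra at 0.65 ± 0.18, Il1b at 0.11 ± 0.18 and Il6st at 0.06 ± 0.13. For inulin they were -0.45 ± 0.15, -0.04 ± 0.18, 0.29 ± 0.18 and -0.03 ± 0.13 in the same gene order. Lifr was lower in females than in males among the controls, by a log2 difference of -0.60 ± 0.15 (limma, adjusted p = 0.0200). Of 19 signalling and transcription factor genes 14 were measured and 0 were called. For G35, 13 of 14 lay above 0 with a median of 0.18, led by the NF-kB cofactor gene Bcl3 at 0.75 ± 0.19, the cytokine feedback inhibitor gene Socs3 at 0.73 ± 0.23, the interferon factor gene Irf1 at 0.72 ± 0.19 and the C/EBP factor gene Cebpd at 0.44 ± 0.20. For G12, 5 of 8 ligand and receptor genes and 11 of 14 signalling genes lay above 0, with both medians at 0.08. For inulin these were 1 of 8 (median -0.04) and 6 of 14 (median -0.03). Of all genes, 47.4% lay above 0 for G35, 52.0% for G12 and 45.3% for inulin.

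Genes of other roles around serum amyloid follow. Among 10 negative acute phase genes, which the liver makes less of during inflammation, 8 were measured and 0 were called. For G35, 5 of 8 lay above 0 with a median of 0.02, with Apoa4 (apolipoprotein A-IV) at 0.71 ± 0.36, Cyp7a1 (the rate-limiting enzyme of bile acid synthesis) at -0.36 ± 0.36, Serpina6 (corticosteroid-binding globulin) at 0.34 ± 0.22 and Alb at -0.08 ± 0.12. Of 12 serum amyloid receptors and partners on high-density lipoprotein 7 were measured, and for G35 3 of 7 lay above 0 with a median of -0.05. In female controls the fatty acid and lipoprotein receptor gene Cd36 was higher than in males by 0.73 ± 0.18 (limma, adjusted p = 0.0165), and Pltp, the phospholipid transfer protein gene, by 0.62 ± 0.15 (adjusted p = 0.0143). Of 11 genes listed for the pentraxins and the start of the complement cascade 6 were measured, 0 were called, and for G35 6 of 6 lay above 0 with a median of 0.17. The 6 were C1qa, C1qb, C1qc, C1ra, C1s1 and Fcgr3, so no pentraxin of this list was measured. G12 had 2 of 8 negative acute phase genes, 1 of 7 partner genes and 4 of these 6 genes above 0, and inulin had 4 of 8, 3 of 7 and 2 of 6. Beside these counts, 47.4% of all genes lay above 0 for G35, 52.0% for G12 and 45.3% for inulin.

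Markers of other cell types were set beside these values, and their part in the results was not tested. Of 9 Kupffer cell and macrophage markers 8 were measured, and the log2 of their summed intensity was 11.66 to 12.48 in G12 and 11.98 to 12.90 in G35, against 11.97 to 12.71 in control 1 mice. It was 12.23 to 12.61 in inulin and 12.01 to 12.54 in control 2 mice, and over the 30 mice its deviations had r = 0.27 with Saa1 and 0.35 with Saa3. The ranges of this sum overlapped between all groups. Each of the 8 markers still had a higher mean in G35 than in control 1 mice, by 0.08 to 0.32 on the log2 scale. The Saa3 difference was 0.96, and 47.4% of all genes lay above 0 in that comparison. Among the 8 markers Cd5l, a gene of tissue macrophages, had the highest r with Saa1 over the deviations, 0.53. The other markers ran from -0.05 (Cd68) to 0.21 (Adgre1). Of 10 neutrophil markers 4 were measured, with sums of 8.43 to 9.18 in G12 and 8.74 to 9.28 in G35, against 8.53 to 9.37 in control 1, and r = 0.01 with Saa1. The sum of the 2 measured of 8 pancreas acinar markers reached 15.99 in G12 and 15.22 in G35, against 12.33 at most in control 1 mice. Its median was 12.99 in G12, 9.54 in G35 and 9.27 in control 1 mice, and it had r = 0.07 with Saa1. Over all mice, the sum of the 2 measured of 8 lymphocyte markers ran from 8.24 to 12.76 (r = -0.36 with Saa1) and the 1 measured of 7 adipocyte markers, Cidec, from 7.38 to 9.72 (r = 0.24). The hepatocyte sum ran from 17.31 to 17.87 (r = -0.31). No marker had a level of 0 on any array, since arrays give a background signal for every probe.

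The arrays lay on 10 slides, 5 per experiment. All male water controls of both experiments were hybridized at block position 4, where no treated male was, so in males the position on the slide and the gavage cannot be told apart.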

How the data were processed

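Cy3-labelled cRNA from each mouse's liver was measured on an Agilent array of 1 colour, per the labels' protocols. The deposited intensity values, whole numbers on a linear scale from 39 to 65535, came, per the submitters' processing notes, from Agilent Feature Extraction. Its version and signal column are not given in the sources used here, and array medians of 141 to 511 show no normalization by the authors. Intensities were corrected with normexp (offset 50), quantile normalized and put on the log2 scale. Of 15505 probes, 12544 carried 1 gene symbol, 2961 none and 0 several, and the brightest probe stood for a gene, which left 8996 genes.

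All arrays entered 1 limma 3.58.1 fit (R 4.3.3) of 10 groups of sex and gavage, with 20 residual degrees of freedom. Differences average the sexes, errors are the fit's SE, and a call is a p under 0.05 after Benjamini-Hochberg adjustment across the 8996 genes. The script was tested on simulated data. Each mouse is a separate individual, per the labels, and the number of mice limits the precision. Genes were named by rule: the 4 members, the 5 most alike of each, and from each gene list those called in a tested comparison and up to 4 with the largest G35 difference. The members and lists were chosen with earlier results of these data known. Promoter windows from RefSeq (GRCm38.p6) were searched on both strands and aligned with Biopython 1.88. In the chicory experiment mice of the same replicate number deviated together (r from 0.12 to 0.71 over 45 pairs), on the evidence of the data alone. The numbers there largely follow the slides: replicate 1 lay on slides 5 and 6, replicate 2 mostly on slide 4 and replicate 3 on slides 1 and 2. A shared number and a shared slide can thus hardly be told apart. In the inulin experiment mice of the same number did not deviate together (r from -0.52 to 0.40 over 18 pairs). Alternatives covered normalization, probes, dim genes, arrays in the fit, slide, replicate number, spread model and each mouse left out.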

Additional observations from a re-analysis of the deposited data

How the results depend on the processing

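Over 264 alternatives of the 12 tested values of the 4 genes, none gave a call, the lowest adjusted p was 0.399, and 17 turned the sign of a value whose 95% interval included 0. For inulin, Saa3 was 0.069 under 75th percentile scaling, where the median of all genes moved to 0.12, so relative to it Saa3 stayed below 0 at -0.05. Apcs was -0.059 with median centring, -0.041 with slide as a fixed block and -0.037 with it as a random block. The female minus male value of Saa2 was 0.0905 with slide as a fixed block. Leaving out 1 mouse at a time, the inulin values ran from -1.18 to 0.36 for Saa1, -0.72 to 0.65 for Saa2 and -0.19 to 0.31 for Apcs, and the female minus male values from -0.97 to 0.40 for Saa2 and -0.050 to 0.46 for Apcs. Genes called for G12 were 3 with slide as a fixed block and 1 with it as a random block. With the replicate number as a block they were 1, against 0 without it, and the replicate block changed no call of the 4 genes. For inulin 4 genes were called with slide as a fixed block, and 0 to 8 with a mouse left out. Between the sexes 322 were called under 75th percentile scaling, 250 with only the arrays compared, 1135 with slide fixed and 938 with it random, against 491. For G35 3 were called under 75th percentile scaling and 3 under median centring, 0 with only the arrays compared, 41 with slide fixed and 33 with it random, against 5, and 1 to 14 with a mouse left out. Of the 5 genes most alike, 3 to 5 remained for Saa1, 4 to 5 for Saa2, 2 to 5 for Saa3 and 2 to 5 for Apcs without 1 mouse, and with the replicate block 0 remained for Saa3 and 2 for Apcs. For spread and likeness, leaving out each mouse and the replicate block were chosen after seeing the data, as were the separate values without male control 2 replicate 2. The cause of these shifts was not tested.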

Other observations

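Some genes ran opposite to the serum amyloid A genes from mouse to mouse. Over the deviations of the 30 mice, Mug1, which encodes the plasma protease inhibitor murinoglobulin, had r = -0.65 with Saa1, and Hsp90aa1, a cytosolic chaperone gene, had r = -0.63. Saa3 had its lowest value with Fam98b (r = -0.79) and Apcs with 3110009E18Rik (r = -0.77). These genes were chosen after their values were seen, and the correlations are descriptions.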
